A study of Mus musculus with 15 samples.

Results

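The 10 genes described here, Homer1, Pcdh8, Nrn1, Inhba, Ptgs2, Rgs2, Rheb, Arl4d, Plk3 and Pim1, encode synaptic and signalling proteins that neuronal activity is known to induce, and they were taken by name from the 37310 genes of the count table. All 10 were among the 18008 genes that passed the filter on low counts and were tested. Hippocampal polyA RNA was sequenced from 2-month-old male C57BL/6J mice in 15 libraries, with n = 5 libraries in each of 3 groups. In contextual fear conditioning a mouse learns to associate a chamber with a foot shock. FC mice received 1 shock of 1.5 mA for 2 s and were sampled 30 min later. RT mice received that training, then a memory test of 5 min in the chamber after 24 h, and were sampled 30 min after this test. CC mice were handled but not trained, with tissue taken at the matching time of day. All mice were wild type. Each library held the pooled hippocampi of 1 mouse, and the libraries of each group carry the numbers 3, 5, 6, 7 and 8. The article and the deposited description differ on how many animals and days were used, so n counts libraries, and tests measure the spread between these libraries. In whole-tissue RNA, fewer cells of a type and less RNA per cell cannot be told apart.

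Synaptic activity raises calcium in neurons, which activates kinases and the transcription factors CREB and SRF at genes that need no new protein synthesis to be switched on. Some of these genes encode transcription factors such as Fos. Others encode effectors, which act directly at the synapse or in signalling: scaffolds, adhesion molecules, secreted factors, enzymes, small GTPases and kinases. The 10 genes belong to this second kind.

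The name activity-induced did not hold for most of the 10 at the level of whole-gene counts 30 min after either session. Arl4d was the only member called higher, in FC and in RT. Pim1 was called lower in FC, and the other 8 members did not pass the test in FC against CC. Calls here are genes past a false discovery rate (FDR) of 0.01 in edgeR's likelihood ratio test, adjusted over all 18008 genes, after upper-quartile (UQ) scaling and RUVs, which estimates factors of unwanted variation from negative control genes and replicate libraries. The members were chosen by name with FC vs CC fold changes of these data in view, so values of that contrast are given as a description and without p-values.

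The library totals lay between 35731428 and 62555543 reads, around a median of 52154887. Fos, an activity-regulated transcription factor, had 1148 to 1698 UQ normalized counts in FC, 977 to 1257 in RT and 219 to 357 in CC, with no overlap of either trained group with CC. Markers of hippocampal excitatory neurons were present in every library, and none of the 7 was at 0. After UQ scaling, FC3 and RT3 stood apart from the other libraries. Across the 14990 genes with a mean of at least 50 counts, the ratio of FC3 to the median of the other 4 FC libraries had a 5th percentile of 0.283 and a 95th percentile of 2.56. The same percentiles for RT3 were 0.568 and 1.65. Results without these libraries are therefore also given for Arl4d, Pim1, Ptgs2, the choroid plexus markers and the called list genes. For Homer1, Pcdh8 and Inhba, ranges with 1 library left out at a time are given. Of 10 choroid plexus markers, 9 were higher in FC than in CC, with summed counts of 13938 to 82325 in FC, 11110 to 29362 in RT and 10563 to 11728 in CC. Without FC3 and RT3, 10 of the 10 were called, and 5 of the 10 were higher in FC than in RT with all libraries. In RT against CC 1 of the 10 was called, Ttr, higher. Without FC3 and RT3, with RUVs factors, 4 were called higher in RT against CC and 6 in FC against RT. The quasi-likelihood test and DESeq2 each called 8 in FC against CC. Both called 0 in RT against CC and 0 in FC against RT. Of 10 endothelial markers, 1 (Tie1) was lower in FC, with log2 -0.24, and of 4 markers of the meninges 1 (Col1a1), with log2 -0.34. The calls of Tie1 and Col1a1 were lost in the quasi-likelihood test and in DESeq2. The part of these differences in the members' results was not tested.

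Promoter windows are shown for the member called higher, Arl4d, and for Homer1 and Plk3, which hold the same short motif and did not pass the test. The windows run from 250 bases before to 50 bases after a transcript start, are 5′ to 3′, and come from RefSeq on GRCm38.p6, a later build than the mm9 used for the counts. Capitals mark the cAMP response element, CRE (TGACGTCA, which is its own reverse complement), to which CREB binds, and its core TGACG on either strand, which is part of the full element.
Arl4d (chr11:101665291-101665590, plus strand): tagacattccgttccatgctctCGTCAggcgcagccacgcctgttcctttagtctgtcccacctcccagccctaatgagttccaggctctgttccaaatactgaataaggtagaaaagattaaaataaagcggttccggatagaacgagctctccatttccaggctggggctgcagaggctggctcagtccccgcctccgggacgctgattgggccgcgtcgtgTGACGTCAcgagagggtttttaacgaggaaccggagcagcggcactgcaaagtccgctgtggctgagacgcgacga
Homer1 (chr13:93303507-93303806, plus strand): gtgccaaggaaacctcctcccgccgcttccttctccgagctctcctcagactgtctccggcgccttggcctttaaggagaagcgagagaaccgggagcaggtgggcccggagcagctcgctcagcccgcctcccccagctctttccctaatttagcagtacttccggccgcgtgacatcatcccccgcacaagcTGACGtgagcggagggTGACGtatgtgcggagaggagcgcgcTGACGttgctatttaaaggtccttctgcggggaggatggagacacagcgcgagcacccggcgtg
Plk3 (chr4:117133914-117134213, minus strand): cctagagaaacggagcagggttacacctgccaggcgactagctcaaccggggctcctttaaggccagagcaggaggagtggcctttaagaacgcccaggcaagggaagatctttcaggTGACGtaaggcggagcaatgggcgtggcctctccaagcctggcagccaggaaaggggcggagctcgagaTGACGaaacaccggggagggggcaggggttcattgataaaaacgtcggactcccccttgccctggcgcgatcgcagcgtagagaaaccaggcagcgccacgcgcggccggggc

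Of the 10 members, 9 matched the promoter table, with 11 windows in all because Homer1 and Pim1 have a pair of entries each, of which the first is shown for Homer1. Arl4d was the one member with the full CRE, at 26 to 19 bases before its start, and 1.79% of the 32851 windows in the table hold it. The core alone is common, being found in 20.8% of all windows and in those of Homer1, Ptgs2, Rgs2, Rheb, Arl4d and Plk3. No member window matched the AP-1 site (TGAGTCA or TGACTCA, in 5.2% of windows), the CArG box bound by SRF (1.63%) or the Egr site (GCGTGGGCG or its reverse complement, 0.612%). A match is a description of letters in this window, and no match says nothing about the factor.

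Levels of the 10 genes spanned a wide range. Per exonic length, as RPKM, the read count scaled to the exonic kilobases of the gene and to the library total, the CC means were 135.5 ± 10.2 for Nrn1, 19.4 ± 1.38 for Pcdh8, 16.6 ± 1.09 for Rheb, 9.49 ± 1.31 for Rgs2 and 7.69 ± 0.754 for Homer1 (SD, n = 5). Below these came Ptgs2 at 6.11 ± 0.699, Arl4d at 5.17 ± 0.534, Plk3 at 4.19 ± 0.301, Pim1 at 0.943 ± 0.0495 and Inhba at 0.854 ± 0.19 RPKM in CC. Nrn1 thus stood above 98.5% of tested genes and Inhba above 22.9%, around a median of 4.64 RPKM. The ranges of mean ± SD overlapped for the neighbours Rgs2 and Homer1, Ptgs2 and Arl4d, and Pim1 and Inhba.

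**Figure D1:**
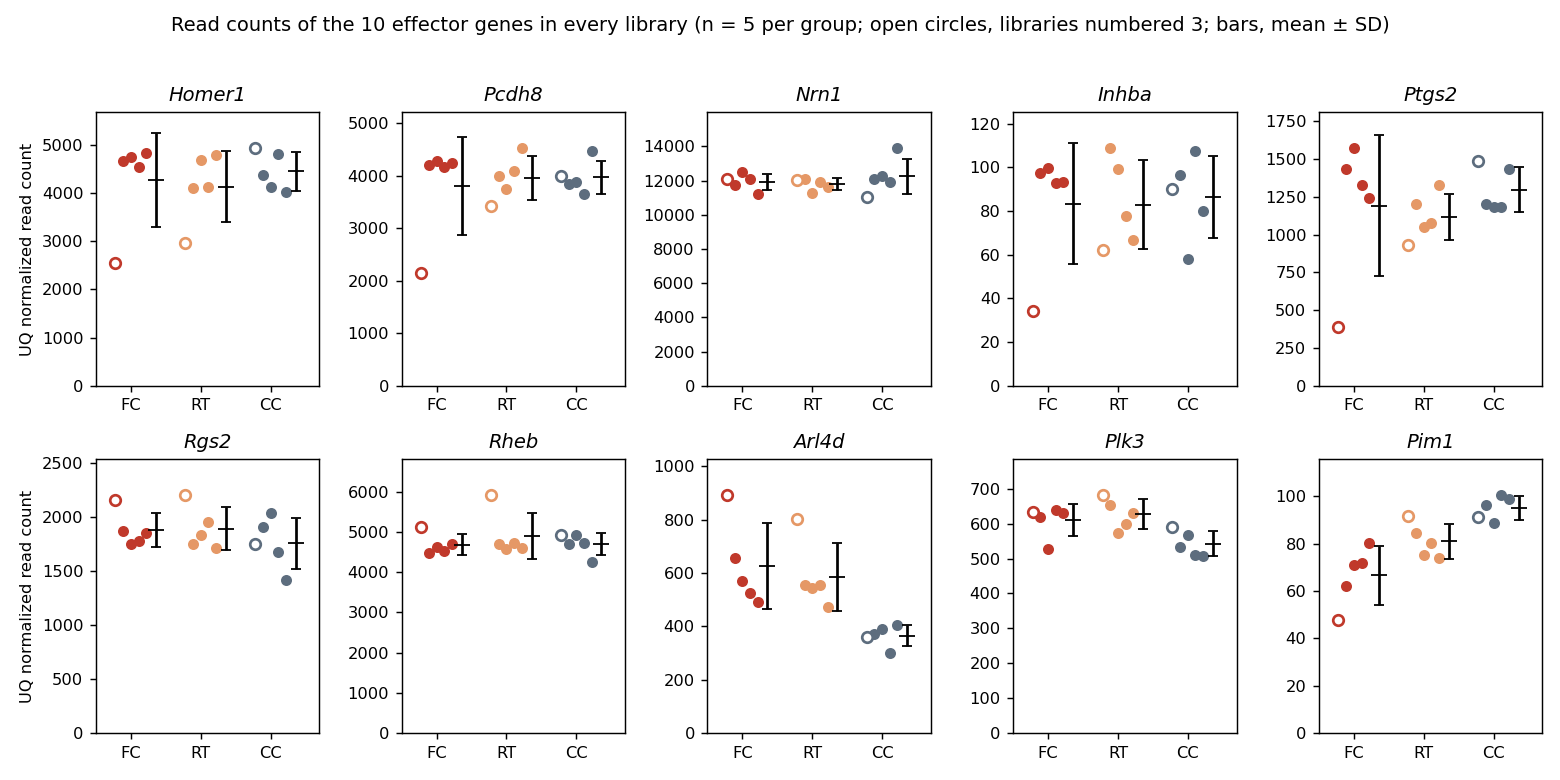
UQ normalized read counts (vertical axes from 0) of each gene in the 5 libraries of FC, RT and CC, with mean ± SD as black bars and the libraries numbered 3 as open circles. Arl4d lies between 490 and 893 in FC and between 471 and 803 in RT, above the 301 to 404 of CC, and FC3 is the low point for Homer1, Pcdh8, Inhba, Ptgs2 and Pim1.

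Arl4d, an Arf-like small GTPase that recruits cytohesins, activators of Arf6, to the plasma membrane, was the only member called in both FC and RT against CC. It lies at chr11:101526855-101529146 on the plus strand of mm9, with 1 annotated transcript and 1382 exonic bases. Its counts in libraries 3, 5, 6, 7 and 8 were 893, 658, 569, 526 and 490 in FC and 803, 557, 542, 556 and 471 in RT. The CC libraries had 359, 372, 391, 301 and 404. Every FC and every RT library was thus above every CC library, which was the case for 0.561% of tested genes in FC and 0.9% in RT. The means were 627 ± 161 in FC, 586 ± 126 in RT and 365 ± 39.7 in CC (SD, n = 5 each). FC3 and RT3 were the highest libraries of their groups, at 1.63 and 1.46 times the median of the other 4.

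The fitted fold change of Arl4d was 1.58 in FC over CC (95% interval 1.45 to 1.71, log2 0.66 ± 0.06 SE), and 0.988% of tested genes had a larger absolute log2 fold change. In RT over CC it was 1.5 (1.38 to 1.63, log2 0.58 ± 0.06 SE, FDR = 7.51e-18 by edgeR's likelihood ratio test). The RT contrast uses the same CC libraries and is not independent of FC vs CC. Without FC3 and RT3, with the factors computed anew, the log2 fold changes were 0.65 in FC and 0.57 in RT, and both were called. With UQ scaling alone, in which all 15 libraries were kept and no factor was removed, Arl4d was not called in FC (log2 0.78) or RT (0.68, FDR = 0.131).

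Pim1, a serine/threonine kinase that promotes survival and growth, was the only member called lower. It lies at chr17:29627757-29632390 on the plus strand of mm9. Its counts were 48, 62, 71, 72 and 80 in FC, 92, 84, 75, 80 and 74 in RT, and 91, 96, 89, 100 and 99 in CC, in the same order of libraries. All 5 FC libraries were below all 5 CC libraries, as for 0.4% of tested genes, while RT3 at 92 lay within the range of CC. The fold change was 0.724 in FC over CC (95% interval 0.62 to 0.846, log2 -0.47 ± 0.11 SE). In RT over CC it was 0.855 (0.736 to 0.992, FDR = 0.406 by edgeR), which did not pass the test.

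The Pim1 call in FC was close to the threshold. It was lost when FC3, FC5, FC6, CC5 or CC7 was left out, with log2 fold changes of -0.38, -0.39, -0.46, -0.45 and -0.42 in that order, and it was also lost in the quasi-likelihood test (-0.47), in DESeq2 (-0.46) and without FC3 and RT3 together (-0.42). Other fits that lost it were UQ scaling alone, both fits with a block for the library number, and UQ scaling without FC3 and RT3. The call was thus lost in 12 of the 25 other settings. The sign was the same in each case. Pim1 had only 47 to 119 raw reads per library. It shares 468 exonic bases with a lincRNA on the opposite strand, Gm16912, which had 4 to 13 reads per library. Whether the counting used strand is not given in the sources used here, so reads in the shared bases cannot be assigned with certainty.

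Plk3, a polo-like kinase of stress and cell cycle responses, came next by size. It lies at chr4:116801260-116806568 on the minus strand of mm9. Counts were 633, 620, 528, 638 and 630 in FC, 682, 654, 574, 599 and 629 in RT, and 591, 534, 569, 510 and 509 in CC. In both FC and RT, 4 of 5 libraries were above every CC library, and FC6 and RT6 were the exceptions. The share of all genes with 4 of 5 libraries apart was not computed. The log2 fold change was 0.15 ± 0.06 SE in FC, which was not called, and 0.17 ± 0.06 SE in RT (FDR = 0.116 by edgeR). Plk3 was not called under any of the 25 other settings in either contrast, with log2 values of 0.11 to 0.20 in FC and 0.14 to 0.205 in RT when 1 library was left out at a time. Plk3 shares 84 exonic bases with Tctex1d4 on the opposite strand, which had 16 to 135 reads per library and was not called.

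**Figure D2:**
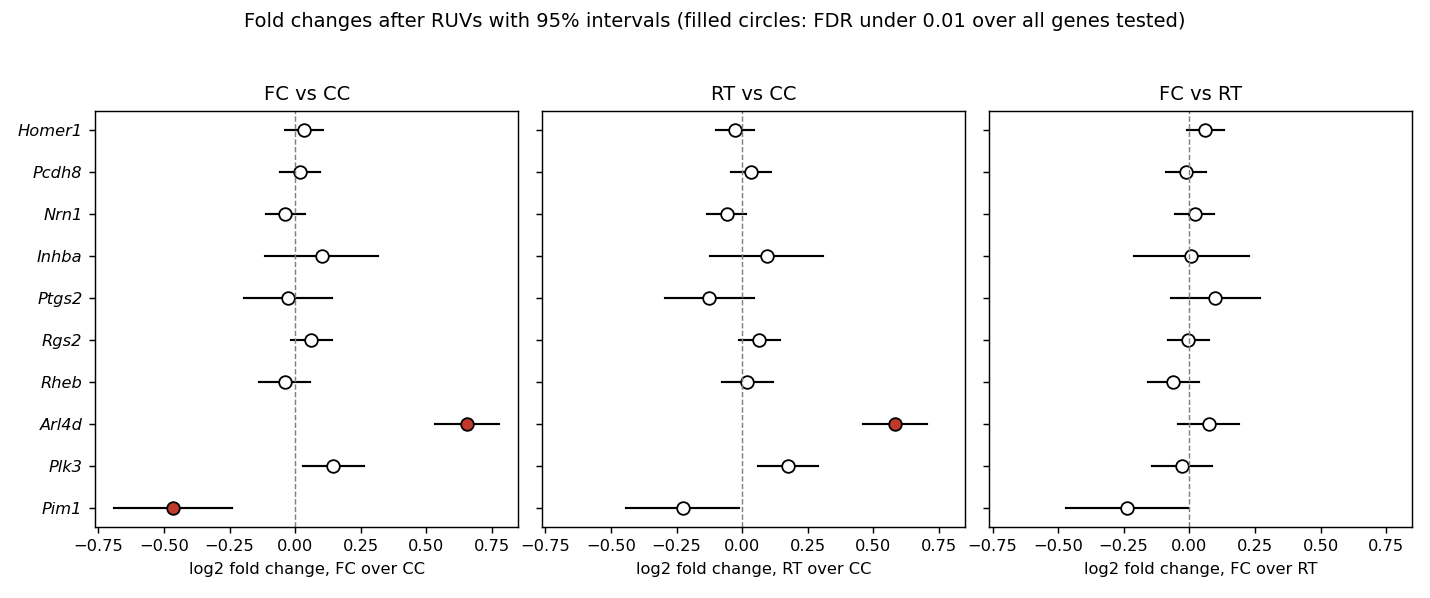
Log2 fold changes of the 10 genes in FC over CC, RT over CC and FC over RT (horizontal axes) with 95% intervals as lines. Filled circles passed the FDR threshold: Arl4d at 0.66 in FC and 0.58 in RT, and Pim1 at -0.47 in FC; no gene did so in FC over RT.

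Homer1, a scaffold that links metabotropic glutamate receptors and IP3 receptors at the postsynaptic density, had counts of 2545, 4672, 4753, 4547 and 4833 in FC, 2963, 4097, 4696, 4134 and 4794 in RT, and 4940, 4384, 4121, 4804 and 4035 in CC. FC3 and RT3 were the 2 lowest libraries, and the remaining libraries of the 3 groups overlapped. The log2 fold change was 0.03 ± 0.04 SE in FC and -0.03 ± 0.04 SE in RT (FDR = 0.856 by edgeR). With 1 library left out at a time, FC3 among them, the value in FC was 0.0105 to 0.0508 and was not called. The gene lies at chr13:94073712-94174917 on the plus strand of mm9 with 13 annotated transcripts. Activity is known to induce the short form, Homer1a, which lacks the domain by which the long forms bind each other. The counts sum all 13 transcripts, so the short and long forms could not be told apart here.

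Pcdh8, also called arcadlin, is a protocadherin at synapses that regulates the uptake of N-cadherin. It had 2147 to 4276 counts in FC, 3420 to 4531 in RT and 3644 to 4480 in CC, and FC3 was the low FC library, the others having 4171 to 4276. The log2 fold change was 0.02 ± 0.04 SE in FC and 0.03 ± 0.04 SE in RT (FDR = 0.842 by edgeR). With 1 library left out at a time, FC3 among them, the value in FC was 0.0064 to 0.0717 and was not called. Nrn1, or neuritin, a surface and secreted protein that promotes neurite growth and synapse maturation, was the highest of the 10 and varied little. Its counts were 11196 to 12495 in FC, 11275 to 12073 in RT and 11054 to 13912 in CC, and its coefficients of variation were 4.07% in FC, 2.91% in RT and 8.47% in CC. FC3 and RT3 were each at 1.02 times the median of the other 4 libraries of their group. Its log2 fold changes were -0.04 ± 0.04 SE in FC and -0.06 ± 0.04 SE in RT (FDR = 0.606 by edgeR).

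Inhba encodes the beta A subunit of activin, a secreted factor of the TGF-beta family. It was the lowest member per exonic length in CC, while Pim1 was lower in FC (0.661 against 0.829 RPKM) and in RT (0.804 against 0.821). Inhba had 34 to 100 counts in FC, 62 to 109 in RT and 58 to 107 in CC. With log2 fold changes of 0.10 ± 0.11 SE in FC and 0.09 ± 0.11 SE in RT (FDR = 0.834 by edgeR), its intervals reached up to 24.5% higher in FC and 23.9% higher in RT. With 1 library left out at a time, FC3 among them, the log2 value in FC was 0.0171 to 0.128 and was not called.

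Ptgs2, the inducible cyclooxygenase COX-2 of prostaglandin synthesis, had counts of 391, 1430, 1572, 1325 and 1239 in FC, 930, 1202, 1051, 1077 and 1324 in RT, and 1485, 1199, 1185, 1180 and 1433 in CC. FC3 was at 0.284 times the median of the other FC libraries, and only 5.02% of genes had a lower ratio in FC3. The biological coefficient of variation left after RUVs was 0.0868, above that of 98.1% of genes, where the median gene had 0.0435. The log2 fold change was -0.03 ± 0.09 SE in FC and -0.12 ± 0.09 SE in RT (FDR = 0.656 by edgeR). Its sign in FC depended on the libraries: without FC3 alone it was 0.08, and without FC3 and RT3 together 0.10, and it was not called either way.

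Rgs2, which speeds the shut-off of G protein signals, had 1751 to 2154 counts in FC, 1716 to 2205 in RT and 1420 to 2043 in CC. Its log2 fold changes were 0.06 ± 0.04 SE in FC and 0.07 ± 0.04 SE in RT (FDR = 0.585 by edgeR), and both turned negative without CC8, the lowest library, at -0.02 each. Rheb, the small GTPase that activates mTORC1, had 4487 to 5116 counts in FC, 4589 to 5925 in RT and 4253 to 4941 in CC. Its log2 fold changes were -0.04 ± 0.05 SE in FC and 0.02 ± 0.05 SE in RT (FDR = 0.938 by edgeR). RT3, the highest Rheb library, had 5925 against 4589 to 4717 in the other RT libraries.

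The intervals give the spread under this model only, which takes the 5 RUVs factors as known and leaves 7 residual degrees of freedom. They may be too narrow, since the quasi-likelihood test called 98 genes in FC against CC where this test called 403. For Homer1 they cover the sum of its transcripts and not the short form. For the 8 members not called in FC, the 95% intervals of the difference from CC had a lowest bound of -12.6%, for Ptgs2, and a highest of 24.5%, for Inhba. For the 9 not called in RT these bounds were -26.4%, for Pim1, and 23.9%, for Inhba. A test that did not pass does not show that a gene was equal in the groups.

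Counted together, 2 of 10 members were called in FC against CC, 1 higher and 1 lower, where 2.24% of all tested genes were called, 1.32% higher and 0.922% lower (403 genes, 237 higher and 166 lower). DESeq2, with its own size factors, called 119 genes higher and 45 lower. In RT against CC, 1 of 10 was called, higher, where 1.01% of all genes were called and 0.866% were called higher (182 genes, 156 higher and 26 lower). At an unadjusted p under 0.05 in edgeR's test there were 3 members in RT, Arl4d and Plk3 higher and Pim1 lower, beside 11% of all tested genes. The CC libraries of this contrast are those of FC vs CC. The median log2 fold change of the members was 0.03 in FC and 0.03 in RT, beside -0.01 in FC and -0.0012 in RT over all tested genes.

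The sessions themselves were compared in FC against RT. None of the 10 members was called by edgeR or DESeq2, where 0.122% of all genes were called by edgeR, that is 22 genes, 14 higher and 8 lower in FC. An unadjusted p under 0.05 was found for 1 member (Pim1) and for 10.7% of all genes. TMM factors gave 17 higher and 4 lower, and DESeq2 gave 3 higher and 1 lower. Same-numbered libraries of FC and RT deviated together, and a model with the replicate block called 82 genes and again no member. With the quasi-likelihood test 0 genes were called, with 1811 at an unadjusted p under 0.05. Among the members Pim1 had the largest fitted difference, log2 -0.24 ± 0.12 SE (FDR = 0.446 by edgeR), with 4 of 5 FC libraries below every RT library. How many of all genes had 4 of 5 libraries apart was not computed. Arl4d differed by log2 0.07 ± 0.06 SE (FDR = 0.708 by edgeR), with an interval of -2.86% to 14% for FC over RT.

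**Figure D3:**
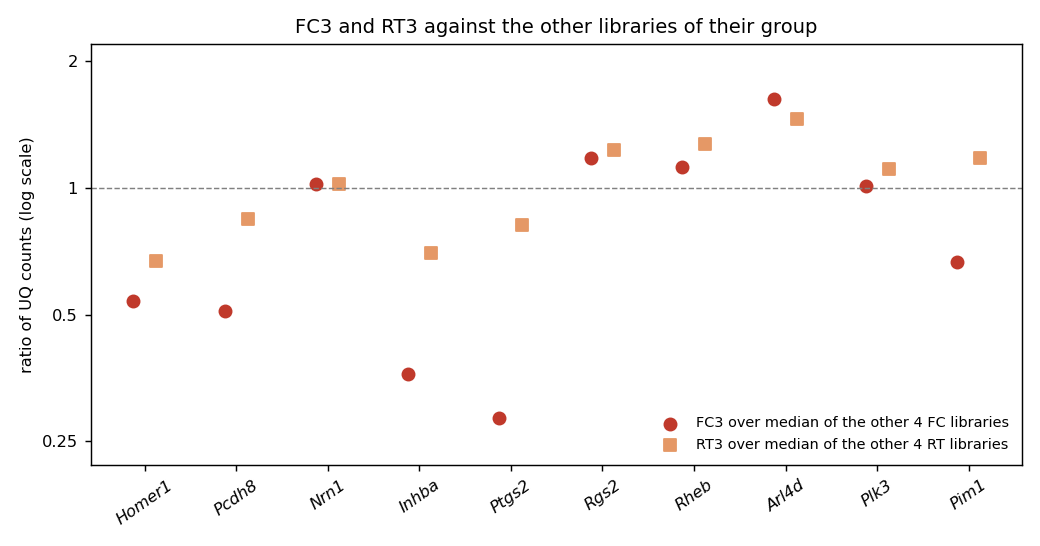
Ratio of the UQ normalized count in FC3 (circles) and RT3 (squares) to the median of the other 4 libraries of the group, on a log axis, for each of the 10 genes. Homer1, Pcdh8, Inhba and Ptgs2 are below 1 in both libraries, down to 0.284 for Ptgs2 in FC3, while Arl4d, Rgs2 and Rheb are above 1 in both.

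FC3 and RT3 moved the members in different directions. Homer1 (0.54 in FC3 and 0.671 in RT3), Pcdh8 (0.509 and 0.845), Inhba (0.362 and 0.702) and Ptgs2 (0.284 and 0.816) were below every other library of their group in both. Arl4d, Rgs2 (1.18 and 1.23) and Rheb (1.12 and 1.27) were above all of them in both libraries. The share of all genes with such a pattern was not computed. Lower ratios in FC3 and in RT3 were found for 17.9% and 10.2% of genes for Homer1, and 15.7% and 27.8% for Pcdh8. These shares were 8.04% and 12.5% for Inhba, and 5.02% and 24.4% for Ptgs2. They were 79.3% and 88% for Arl4d, 60.8% and 71.8% for Rgs2, and 57.2% and 75.6% for Rheb. Pim1 was low in FC3 (0.668) and high in RT3 (1.18). CC3 shared none of these departures for Homer1, Pcdh8 or Ptgs2, with 4940, 3993 and 1485 counts.

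Genes around the members were described from lists chosen with earlier results known. Partners of Homer1 and other postsynaptic scaffolds had 0 of 15 genes called by edgeR in either contrast, with 3 in FC and 0 in RT at an unadjusted p under 0.05, where 16.5% of all tested genes in FC and 11% in RT were under it. The smallest p was that of Shank2 in FC (log2 -0.09 ± 0.03 SE, not called) and of Dlgap1 in RT (-0.07 ± 0.04 SE, not called). Among 10 delta-protocadherins and partners of Pcdh8, 2 were called lower in FC, Pcdh9 (log2 -0.26) and Cdh2, which encodes N-cadherin (-0.13), and none in RT. Both calls were lost when FC3 was left out and without FC3 and RT3 together, where the log2 values were -0.04 for each, and that of Cdh2 also without CC3, CC6, CC8, FC5 or FC7. At an unadjusted p under 0.05 there were 5 of these 10 genes in FC and 2 in RT. Over all tested genes 0.922% were called lower in FC. Of 9 tested secreted and surface proteins regulated by activity, none was called in FC or RT, with 1 in FC and 2 in RT at an unadjusted p under 0.05, beside those same shares of all genes. Bdnf, the neurotrophin, had a log2 fold change of 0.11 ± 0.04 SE in FC, and it was called without FC3 and RT3. In RT the smallest p of this group belonged to the pentraxin Nptx2 (log2 0.10 ± 0.04 SE, not called).

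Activin signalling, mTORC1 signalling and the kinase families each had 1 called gene, higher in both contrasts. Over all tested genes 1.32% were called higher in FC and 0.866% in RT. At an unadjusted p under 0.05 there were 5 of 15, 3 of 16 and 2 of 6 genes of these lists in FC. In RT there were 4, 1 and 1, and the shares over all tested genes were 16.5% in FC and 11% in RT. Bambi, a decoy receptor of TGF-beta and activin signalling, had 468 ± 82.9 counts in FC, 466 ± 76.9 in RT and 363 ± 63 in CC (SD, n = 5), with log2 fold changes of 0.27 in both, and was the only 1 of 15 activin genes called. Ddit4, an inhibitor of mTORC1 that acts upstream of Rheb, had 3314 ± 434 counts in FC, 3352 ± 531 in RT and 2412 ± 329 in CC. Its log2 fold changes were 0.42 ± 0.05 SE in FC and 0.43 ± 0.05 SE in RT (FDR = 1.17e-14 by edgeR), and the other 15 mTORC1 genes were not called. Pim3, a paralog of Pim1, had 1840 ± 80.9 counts in FC, 1901 ± 207 in RT and 1519 ± 101 in CC. Its log2 fold changes were 0.25 ± 0.04 SE in FC and 0.27 ± 0.04 SE in RT, whereas those of Pim1 were negative in both, and none of the other 5 genes of the polo-like and Pim list was called. All 3 genes were also called without FC3 and RT3 with the factors computed anew, in FC and in RT, and none of them with UQ scaling alone. The calls of Bambi in both contrasts were also lost in the quasi-likelihood test, in DESeq2 and with 3 RUVs factors, while Ddit4 and Pim3 were called under each of these.

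Prostaglandin enzymes and receptors (16 genes), RGS and G protein genes (15 genes) and the Arl4, Arf and cytohesin genes (8 genes) had none called in FC or RT, also by DESeq2 and by the quasi-likelihood test. At an unadjusted p under 0.05 there were 3, 2 and 1 genes of these lists in FC and 2, 4 and 1 in RT, beside 16.5% of all tested genes in FC and 11% in RT. Their members with the smallest p were the prostaglandin receptor Ptger3 (log2 -0.33 ± 0.11 SE in FC and -0.33 ± 0.11 SE in RT), the G protein subunit Gnao1 in FC (-0.09 ± 0.03 SE), Rgs17 in RT (-0.10 ± 0.04 SE), Arl4a in FC (0.10 ± 0.04 SE) and the Arf exchange factor Cyth2 in RT (0.09 ± 0.03 SE). Arl4a, a paralog of Arl4d, had 1451 ± 71.3 counts in FC, 1396 ± 53.8 in RT and 1339 ± 109 in CC.

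Other early effector genes that activity induces formed a list of 13, of which 9 were called higher in FC and 9 in RT. Over all tested genes 1.32% were called higher in FC and 0.866% in RT. Gem, Rasd1, Ppp1r15a and Ier5 were not called in either contrast. The list had medians of log2 0.38 in FC and 0.34 in RT, beside -0.01 in FC and -0.0012 in RT over all tested genes. Arc, which regulates the uptake of AMPA receptors, had 9647 to 14248 counts in FC, 10142 to 12859 in RT and 3321 to 5081 in CC, with log2 fold changes of 1.48 in FC and 1.37 in RT. Cyr61, a secreted matrix protein, had log2 fold changes of 1.06 in FC and 0.90 in RT, and Ier2, an early response gene, 0.94 in FC and 0.92 in RT. The list was chosen with results of these libraries known, so its count is not independent evidence of its direction. The quasi-likelihood test called 8 of the 13 in FC and 6 in RT, and DESeq2 called 9 in FC and 8 in RT. With UQ scaling alone 3 were called in FC (Arc, Cyr61 and Ier2) and 2 in RT (Arc and Cyr61). Without FC3 and RT3, 9 were called in FC and 8 in RT, where Trib1 was lost. In RT the call of Trib1 was also lost without CC5, CC6, CC7, CC8, RT6 or RT7, and that of Gadd45b without CC5. The log2 fold changes of Arl4d, 0.66 in FC and 0.58 in RT, lay within the range of the called genes of this list, which spanned 0.26 to 1.48 in FC and 0.20 to 1.37 in RT.

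**Figure D4:**
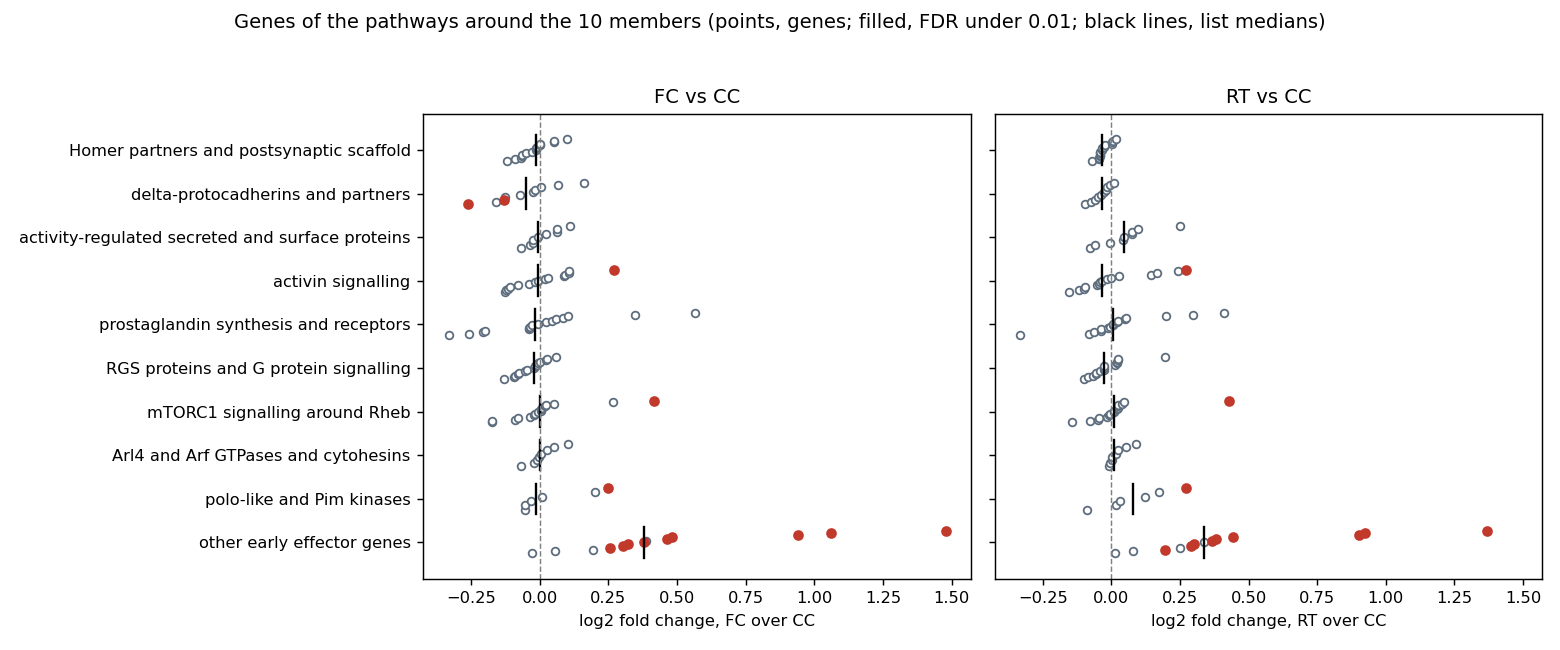
Log2 fold changes of single genes (points) in 10 lists around the members, for FC over CC on the left and RT over CC on the right, with list medians as black lines. Called genes are filled: the 9 other early effectors per contrast, Bambi, Ddit4 and Pim3 in both, and Pcdh9 and Cdh2 in FC.

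Across the 13 libraries other than FC3 and RT3, the genes whose log2 counts followed each member most closely were found among 13738 genes with a mean of at least 100 counts. For Arl4d it was Mcl1 (Pearson r = 0.955), an early effector called higher in both contrasts, and after RUVs over all 15 libraries it was Fos (r = 0.978), with Mcl1 at 0.977. For Homer1 it was Fnip1 (0.962), for Pcdh8 the ephrin receptor Epha7 (0.906), for Nrn1 the adenylate kinase Ak5 (0.932), for Inhba 5430411K18Rik (0.961) and for Ptgs2 Ppfia2 (0.878). Rgs2 was most like Ctgf (0.835), Rheb like A030009H04Rik (0.917), Plk3 like Midn (0.944) and Pim1 like Tspyl3 (0.894). The libraries differ in group, lane and depth, and the part of these differences in the correlations was not tested. The highest of 13738 values is high by selection, and for 0 of 10 members was the same gene the closest after RUVs. Among the members themselves, the 45 pairwise correlations of deviations of log2 UQ counts from group means, over the same 13 libraries, ran from -0.738 to 0.747 with a median of -0.08.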

How the data were processed

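The authors aligned 100 bp paired-end reads to mm9 with GSNAP, kept uniquely and concordantly mapped pairs, and deposited raw read counts per Ensembl gene made with HTSeq 0.6.1. The aligner's version and the use of strand are not given in the sources used here. All 37310 identifiers matched the annotation of the same build. Lane membership put 1 library of each group together.

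Genes were kept when over 5 libraries had over 10 reads each, which left 18008. They were fitted with edgeR 4.0.16 in R 4.3.3, in a single model of the 15 libraries with UQ factors and 5 RUVs factors, and a likelihood ratio test at an FDR of 0.01 over all genes, as in the study. RUVs was written anew and used the study's 625 negative control genes. Standard errors were derived from the fold change and its likelihood ratio statistic. Scripts were tested on simulated data. Alternatives included the quasi-likelihood test, DESeq2 1.42.0, TMM, 3 factors, no filter and each library left out. The fit without FC3 and RT3 with RUVs factors was chosen after seeing the data. Plots and promoter searches used Python 3.11.15 with pandas 2.3.3, numpy 2.4.6 and matplotlib 3.10.9.

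Members and lists were chosen with earlier results of these data known. Genes are named by a rule: the 10 members, Fos, up to 2 called genes with the smallest p per list and contrast or otherwise the 1 with the smallest p, and the gene most like each member. Outside this rule, Gadd45b and Trib1 are named for lost calls, and Gem, Rasd1, Ppp1r15a and Ier5 as the early effectors not called. Ttr, Tie1 and Col1a1 are named as called markers. All of these were named after their values were seen. Gm16912 and Tctex1d4 are named for the exonic bases they share with members. Across 18008 genes, deviations from group means of same-numbered FC and RT libraries had correlations of 0.254 to 0.87, with a median of 0.568. For different numbers they ran from -0.686 to 0.512 with a median of 0.14, so the ranges overlapped. FC against RT is therefore also given with the replicate block. For CC the same-number values ran from -0.326 to 0.241. Libraries of a group differed by more than counting noise in every pair.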

Additional observations from a re-analysis of the deposited data

Results flagged for a closer look

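Of 30 combinations of gene and group, 7 had a library that lay far from the other 4 by Dixon's test. Chance gives about 1 in 20 for independent values, but these combinations share libraries, and the share over all genes was not computed. Of the 7, 4 were the low values of FC3, with 2545 UQ normalized counts for Homer1 (others 4547 to 4833), 2147 for Pcdh8 (others 4171 to 4276), 34 for Inhba (others 93 to 100) and 391 for Ptgs2 (others 1239 to 1572). FC3 stood apart over all genes. Its ratio to the other FC libraries was lower still for 17.9%, 15.7%, 8.04% and 5.02% of genes, in that order. RT3 was high for Rheb at 5925 (others 4589 to 4717) and for Arl4d at 803 (others 471 to 557). FC6 was low for Plk3 at 528 (others 620 to 638), and without FC6 the log2 fold change of Plk3 in FC over CC was 0.20, also not called.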

How the results depend on the processing

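Among 750 values for single genes under 25 other settings, 688 kept their direction and their side of the threshold, 15 kept the direction and lost the call, 47 changed sign and 0 gained a call; the values that changed sign were those of genes not called, and the cause was not tested. Genes called in FC vs CC, RT vs CC and FC vs RT numbered 403, 182 and 22, but 34, 19 and 0 with UQ factors only (122 at an unadjusted p under 0.05 in FC vs RT), 98, 66 and 0 in the quasi-likelihood test, 164, 85 and 4 in DESeq2, and 176, 123 and 1 with 3 RUVs factors. Without the filter 34 were called in FC vs RT. With the replicate block and RUVs factors FC vs RT gave 82, and with the replicate block and UQ factors only the counts were 45, 27 and 0 (169 at an unadjusted p under 0.05 in FC vs RT). Without FC3 and RT3 they were 110, 66 and 0 (853 at an unadjusted p under 0.05 in FC vs RT) with UQ factors, and 494, 198 and 62 with RUVs factors. Leaving out 1 library gave 249 (without FC5) to 653 (without CC8) genes in FC vs CC, 145 to 276 (without CC8) in RT vs CC and 11 to 92 in FC vs RT, where 10 of 15 libraries moved the count by over 1.5 times. Members called in FC vs CC numbered 2, but 0 with UQ factors only, 1 in the quasi-likelihood test, in DESeq2, with either replicate block and without FC3 and RT3, and 1 to 2 with 1 library left out; in RT vs CC they numbered 1, but 0 with UQ factors only, with or without the replicate block. FC and RT numbers did not pair with CC, and the block moved the count with RUVs factors to 455 in FC vs CC and 212 in RT vs CC.

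Signs turned in FC vs CC with UQ factors only for Homer1 (-0.0618), Pcdh8 (-0.0601) and Inhba (-0.0588), with the replicate block besides (-0.105, -0.0919 and -0.106), and for Ptgs2 with the replicate block and RUVs factors (0.0249) and without FC3 and RT3 (0.103 with UQ and 0.103 with RUVs factors). In RT vs CC they turned with UQ factors only for Pcdh8 (-0.00437) and Inhba (-0.0637), with the replicate block besides (-0.015 and -0.0938), and without FC3 and RT3 for Rheb (-0.0161 with UQ and -0.0164 with RUVs factors). In FC vs RT they turned for Pcdh8 without the filter (0.00208) and without FC3 and RT3 (0.0484 with UQ and 0.0729 with RUVs factors), for Inhba with the replicate block and RUVs (-0.00163) or UQ factors (-0.0125), and for Rgs2 in DESeq2 (0.00969), with TMM (0.00894), without the filter (0.0125) and without FC3 and RT3 (0.00139 with UQ and 0.0185 with RUVs factors). With 1 library left out, the log2 values that turned ranged in FC vs CC from -0.0604 to 0.0127 for Nrn1, -0.0943 to 0.0762 for Ptgs2 and -0.0168 to 0.102 for Rgs2, in RT vs CC from -0.00163 to 0.154 for Inhba, -0.0171 to 0.116 for Rgs2 and -0.0232 to 0.0431 for Rheb, and in FC vs RT from -0.0659 to 0.0547 for Pcdh8, -0.0796 to 0.0466 for Inhba, -0.037 to 0.023 for Rgs2 and -0.0754 to 0.0162 for Plk3. Inhba and Pim1, with at most 123 raw reads per library, had the widest intervals.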
